A study of Mus musculus with 8 samples.

Results

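The genes of the T cell receptor constant regions and of the CD3 chains were examined in jejunum, the middle stretch of the small intestine, by bulk RNA sequencing. They were chosen by gene symbol: the alpha constant gene Trac, the beta constants Trbc1 and Trbc2, the delta constant Trdc, the gamma constants Trgc1, Trgc2 and Trgc4, and the CD3 chains Cd3d, Cd3e and Cd3g. These 10 genes are 10 of the 56941 rows of the count table, and all 10 were found and passed the filter on low counts. The tissue came from C3H/HeJ mice (C3H, 4 libraries, replicates 1, 3, 4 and 5) and from C57BL/6 mice (B6, 4 libraries, replicates 2, 3, 4 and 5). All mice were naive, and the labels name no engineered allele; C3H/HeJ is known for a natural loss-of-function mutation of Tlr4. They give an age of 6 to 8 weeks and at least 8 weeks of co-housing ahead of harvest, without saying at which point the age was taken. The series title concerns food anaphylaxis and cysteinyl leukotrienes, and the strain is the only contrast in the labels. All libraries belong to batch 1. Whether the libraries came from separate mice is not labelled, so p-values measure only the spread among libraries, which may in part be technical.

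A T cell recognises antigen through a receptor made of an alpha and a beta chain or of a gamma and a delta chain. Each chain joins a rearranged variable part, which differs from cell to cell, to a constant part shared by all cells that use that constant gene. The receptor itself has no signalling tail and reaches the surface only with CD3 chains and the zeta chain, whose phosphorylation starts the signal. Alpha-beta receptors carry the gamma, delta and epsilon chains of CD3, and most gamma-delta receptors of the mouse lack the delta chain. The small intestinal epithelium is rich in intraepithelial lymphocytes, and in mice many of these carry a gamma-delta receptor, often with the Trgv7 variable segment. Constant gene transcripts do not map strictly to a cell type, since alpha-beta T cells can transcribe gamma constants and some innate lymphocytes transcribe constant genes without a complete receptor. In whole tissue, fewer T cells and less of a transcript per T cell cannot be told apart.

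The beta and the gamma constants are close copies, which bears on how short reads can be assigned to them. Over exon 1 in the GENCODE M21 annotation, Trbc1 and Trbc2 (chromosome 6) were 99.7% identical and differed at 1 of 375 bases. Trgc1 and Trgc2 (chromosome 13, on opposite strands) were 97.3% identical and differed at 9 of 330 bases, while Trgc4 was 82.1% identical to Trgc1 and 81.5% to Trgc2. The stretches below run from base 201 to 260 of exon 1 for the beta constants and from base 88 to 147 for the gamma constants, in the coding direction, and capitals mark the bases at which the members of a pair differ.
Trbc1: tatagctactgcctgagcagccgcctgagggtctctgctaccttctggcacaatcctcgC
Trbc2: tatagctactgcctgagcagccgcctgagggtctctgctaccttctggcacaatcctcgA
Trgc1: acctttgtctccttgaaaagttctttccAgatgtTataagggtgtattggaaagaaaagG
Trgc2: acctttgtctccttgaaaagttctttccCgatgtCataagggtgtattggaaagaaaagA
Of all windows of 50 bases in the longest transcript, 283 of 688 in Trbc1 (41.1%) and 283 of 643 in Trbc2 occurred also in the other gene. For Trgc1 the share was 34.2% and for Trgc2 25.4%, in each case shared with the other or with a further close copy, Trgc3. Trgc4 and Trac shared none, Trdc shared 1.6%, and the CD3 genes at most 0.1%. The split of counts within the beta pair and between Trgc1 and Trgc2 is therefore uncertain, while Trac, Trdc, Trgc4 and the CD3 genes do not have this limit. Trdc overlaps the small variable segment Trdv5 on the other strand, which had 13 counts in C3H and 58 in B6 over all libraries, against 1612 and 2443 for Trdc.

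T cell receptor and CD3 transcripts were less abundant in C3H jejunum than in B6 jejunum: 9 members were lower and 0 were higher, with all 10 log2 fold changes negative, at an adjusted p under 0.05 in the edgeR quasi-likelihood test. These 9 of 10 members stand beside 10.1% of the 18025 tested genes called lower and 11.3% called higher in C3H. In all 10 members every C3H library lay below every B6 library, a pattern found in 11.7% of tested genes; the opposite pattern, every C3H library above every B6 library, was found in 12.7%. The median log2 fold change was -0.99 over the members and 0.03 over all tested genes. The member that missed the threshold was Trgc4. The count stayed at 9 without the 4 libraries that held most pancreatic transcripts (2 of each strain).

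**Figure D1:**
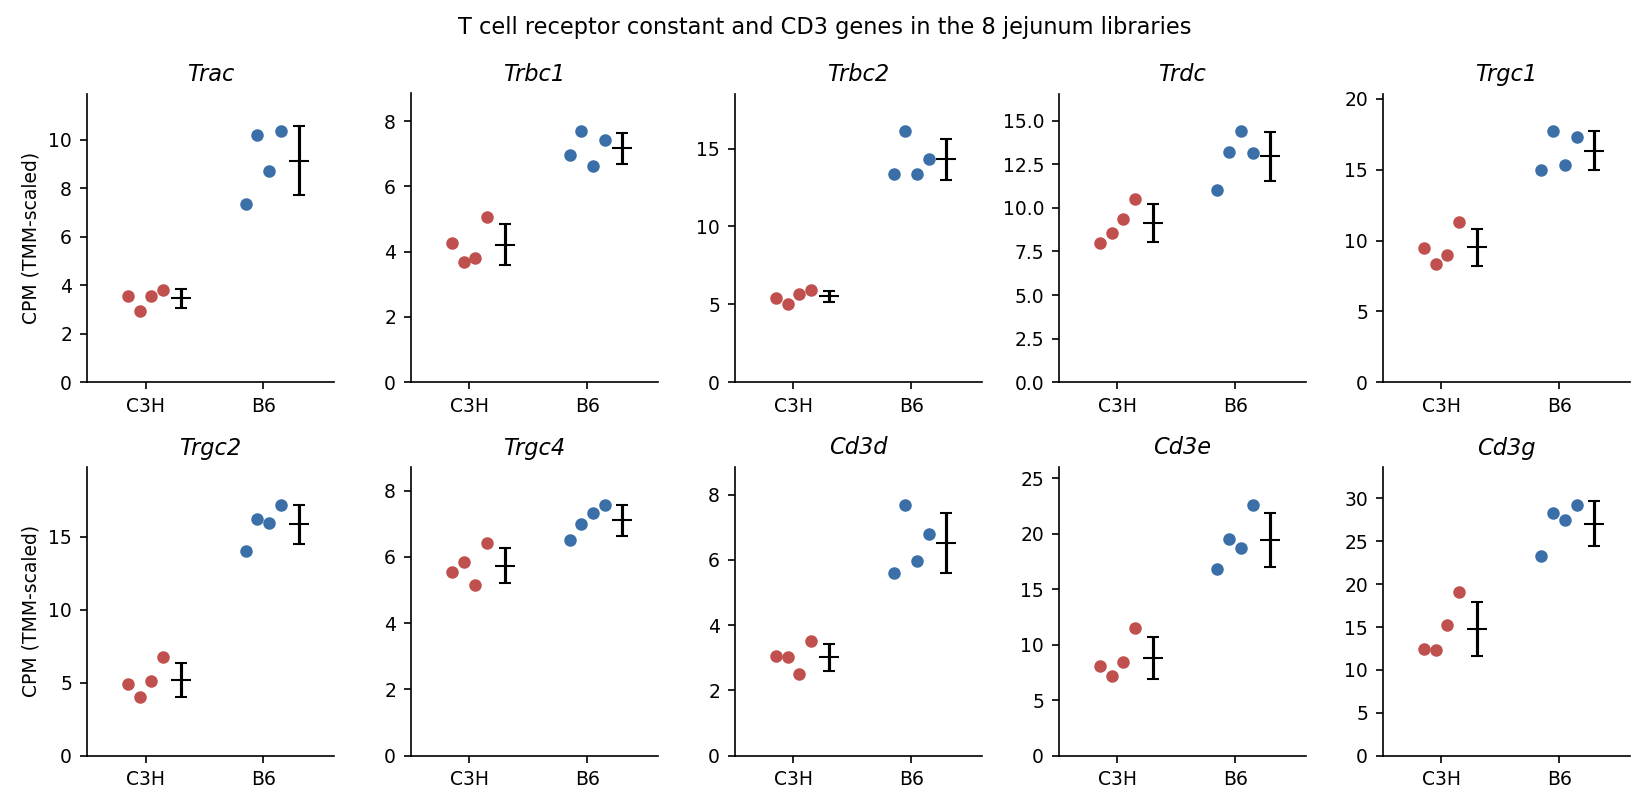
Level in CPM (counts scaled to the TMM-adjusted library size) of each member, with 1 point per library, C3H at the left and B6 at the right of each panel; the black mark and bar are the mean and SD of 4 libraries. Every C3H point lies below every B6 point in all 10 panels, with the narrowest gap in Trgc4, where C3H reached 6.42 CPM and B6 began at 6.51 CPM.

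The alpha-beta constants were lower in C3H. Trac (ENSMUSG00000076928, chromosome 14), the only constant gene of the alpha chain, had 3.55, 2.92, 3.56 and 3.81 CPM in the C3H libraries, against 7.33, 10.2, 8.69 and 10.3 CPM in the B6 libraries. The C3H libraries lay close together and the lowest B6 library stood well above all of them. The mean was 3.46 ± 0.381 CPM in C3H and 9.14 ± 1.42 CPM in B6 (SD, n = 4 each), a 2.65-fold lower level with a log2 fold change of -1.40 (SE 0.139, edgeR adjusted p = 2.97e-05). The values rest on 139 to 181 counts per C3H library and 276 to 557 per B6 library.

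Trbc2 (ENSMUSG00000076498), the downstream beta constant, had 5.44, 5.05, 5.65 and 5.91 CPM in C3H, against 13.4, 16.1, 13.4 and 14.3 CPM in B6. It was 2.60-fold lower (log2 fold change -1.38, SE 0.0992, edgeR adjusted p = 2.64e-06), nearly the same size of change as for Trac. Trbc1 (ENSMUSG00000076490), the upstream beta constant, had 4.28, 3.69, 3.81 and 5.08 CPM in C3H, against 6.96, 7.70, 6.62 and 7.41 CPM in B6. Its difference was smaller, 1.70-fold (log2 fold change -0.77, SE 0.124, edgeR adjusted p = 0.000996), and the groups again did not overlap. Summed over the 3 genes, alpha-beta constants stood at 13.2 ± 1.29 CPM in C3H and 30.6 ± 2.95 CPM in B6.

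The gamma-delta constants spread more widely among themselves. Trdc (ENSMUSG00000104876, chromosome 14), the only constant gene of the delta chain, had 8.01, 8.58, 9.34 and 10.5 CPM in C3H, against 11.1, 13.2, 14.4 and 13.2 CPM in B6. The highest C3H library and the lowest B6 library were close to each other. The mean was 9.11 ± 1.09 CPM in C3H and 13.0 ± 1.39 CPM in B6, 1.42-fold lower (log2 fold change -0.51, SE 0.114, edgeR adjusted p = 0.00807). Trgc1 (ENSMUSG00000076749), the constant joined by Trgv7, had 9.44, 8.35, 8.95 and 11.3 CPM in C3H, against 14.98, 17.7, 15.3 and 17.3 CPM in B6, and was 1.72-fold lower (log2 fold change -0.78, SE 0.110, edgeR adjusted p = 0.000414).

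Trgc2 (ENSMUSG00000076752) showed the largest difference of the 10 members. It had 4.93, 3.99, 5.09 and 6.80 CPM in C3H, against 14.1, 16.2, 16.0 and 17.2 CPM in B6. The level was 3.06-fold lower in C3H, with a log2 fold change of -1.61 (SE 0.149, edgeR adjusted p = 1.74e-05). Trgc4 (ENSMUSG00000076757), in the cassette of Trgv1, showed the smallest difference, with 5.54, 5.84, 5.17 and 6.42 CPM in C3H, against 6.51, 6.98, 7.34 and 7.58 CPM in B6. Its log2 fold change of -0.31 (95% confidence interval -0.54 to -0.08, edgeR adjusted p = 0.0600) missed the threshold. Trgc4 passed it in DESeq2 (adjusted p = 0.0306) and in limma-voom (0.0476). Summed over these 4 genes, gamma-delta constants stood at 29.6 ± 3.74 CPM in C3H and 52.2 ± 3.88 CPM in B6.

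The 3 CD3 chains, which lie next to each other on chromosome 9, were lower in C3H by similar factors. Cd3e (ENSMUSG00000032093), encoding the epsilon chain found in every surface receptor, had 8.05, 7.14, 8.42 and 11.5 CPM in C3H, against 16.8, 19.5, 18.7 and 22.6 CPM in B6. It was 2.22-fold lower (log2 fold change -1.15, SE 0.147, edgeR adjusted p = 0.000208), and the groups were well apart. Cd3d (ENSMUSG00000032094), the delta chain of CD3, had 3.04, 3.01, 2.51 and 3.52 CPM in C3H, against 5.61, 7.70, 5.97 and 6.80 CPM in B6, and was 2.16-fold lower (log2 fold change -1.11, SE 0.141, edgeR adjusted p = 0.000199). Cd3g (ENSMUSG00000002033), the gamma chain of CD3, had 12.5, 12.3, 15.2 and 19.1 CPM in C3H, against 23.2, 28.3, 27.5 and 29.3 CPM in B6, and was 1.84-fold lower (log2 fold change -0.88, SE 0.139, edgeR adjusted p = 0.000914). The C3H library with replicate number 5 was the highest of its group for all 3 chains. The summed CD3 level was 26.6 ± 5.27 CPM in C3H and 53.0 ± 5.58 CPM in B6.

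**Figure D2:**
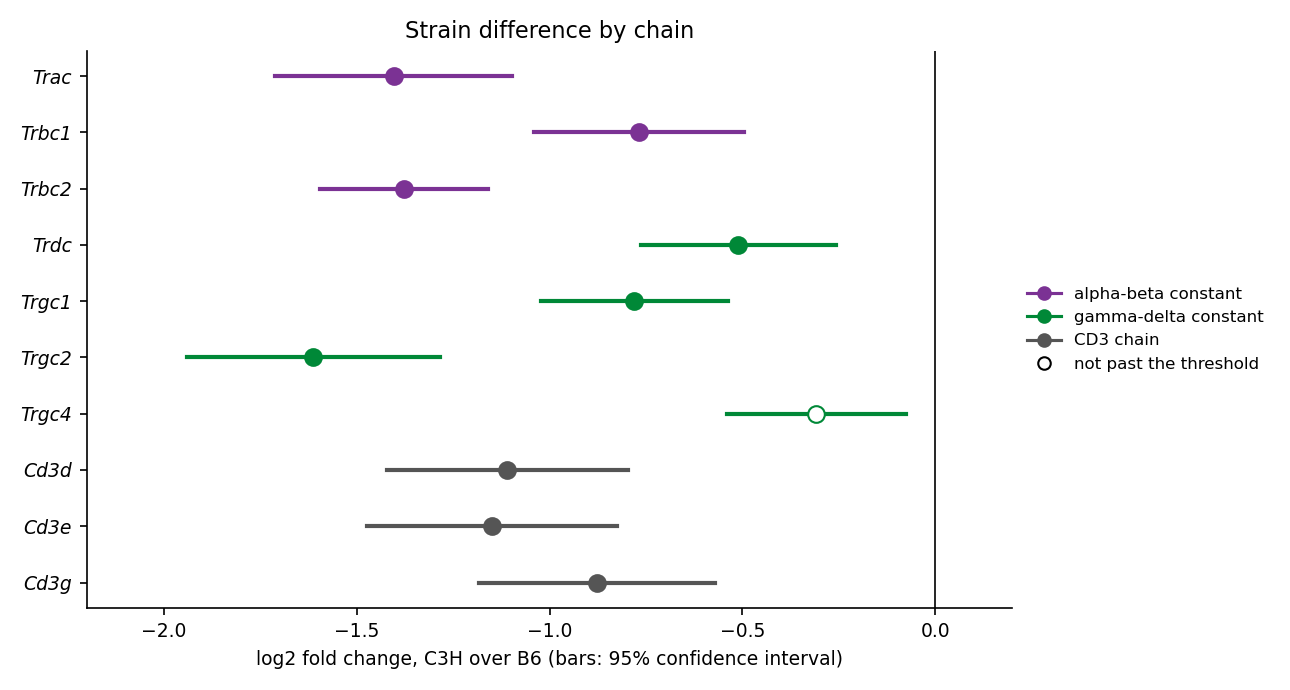
Log2 fold change of C3H over B6 (horizontal axis) for each member, with its 95% confidence interval; filled points passed the adjusted p threshold of 0.05 and the open point did not. All 10 intervals lie below 0, from Trgc2 at -1.61 to Trgc4 at -0.31.

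Because the 3 CD3 genes moved by similar factors, the 250 bases before each annotated start are shown (RefSeq, build GRCm38.p6, chromosome 9, each on its own gene's strand). Capitals mark matches, on either strand, to the Ets core GGAAG and the E-box CAGNTG, letters bound by factor families active in T cells.
Cd3d, chr9:44981536-44981785, plus strand: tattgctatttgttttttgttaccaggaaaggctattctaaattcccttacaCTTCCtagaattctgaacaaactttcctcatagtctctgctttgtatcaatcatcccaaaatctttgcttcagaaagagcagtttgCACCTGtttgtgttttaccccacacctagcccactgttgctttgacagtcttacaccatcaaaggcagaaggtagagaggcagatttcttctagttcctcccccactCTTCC
Cd3e, chr9:45009612-45009861, minus strand: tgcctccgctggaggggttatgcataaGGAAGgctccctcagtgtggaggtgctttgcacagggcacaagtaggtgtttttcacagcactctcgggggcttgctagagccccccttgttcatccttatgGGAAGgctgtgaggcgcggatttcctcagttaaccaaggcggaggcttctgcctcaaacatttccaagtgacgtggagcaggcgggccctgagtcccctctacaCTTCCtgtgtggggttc
Cd3g, chr9:44980432-44980681, minus strand: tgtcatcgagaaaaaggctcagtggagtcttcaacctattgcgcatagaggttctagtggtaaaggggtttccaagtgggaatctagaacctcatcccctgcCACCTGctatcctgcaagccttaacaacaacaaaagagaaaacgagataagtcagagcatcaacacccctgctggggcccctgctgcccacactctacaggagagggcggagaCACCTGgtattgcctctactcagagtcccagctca
Cd3d and Cd3g are divergently transcribed neighbours. The Ets core occurred 2 times in the Cd3d window, 3 times in the Cd3e window and 0 times in the Cd3g window, and the E-box occurred 1, 0 and 2 times. Of the 27025 promoter windows of the same length, 63.6% held an Ets core and 44.5% an E-box. None of the 3 windows held the letters TGTGGT, of the Runx site (14.2% of windows), or TATAAA, of the TATA box (13.0%). No motif searched was found in all 3 CD3 windows.

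Levels of different genes were ranked per kilobase of the longest coding transcript. In C3H the order of CPM per kilobase ran from Cd3g (14.4 ± 3.11) and Trgc1 (10.3 ± 1.39) through Trbc2 (7.96 ± 0.526), Cd3e, Trgc4, Trbc1, Trgc2 and Trac (3.70 ± 0.408) to Trdc (2.36 ± 0.282) and Cd3d (1.87 ± 0.255). The levels of Cd3e, Trgc4, Trbc1 and Trgc2 were within 1 SD of each other, between 5.69 and 6.00 CPM per kilobase. In B6 the order ran from Cd3g (26.5 ± 2.59) and Trbc2 (20.7 ± 1.87) through Trgc1, Trgc2, Cd3e, Trac, Trbc1 and Trgc4 to Cd3d (4.03 ± 0.576) and Trdc (3.35 ± 0.361). There Trgc1 and Trgc2 did not differ beyond their spread (17.7 ± 1.496 and 17.3 ± 1.44 CPM per kilobase), nor did Trac and Trbc1 (9.78 ± 1.52 and 9.73 ± 0.648). Trgc2 ranked 7 in C3H and 4 in B6. The place of a CD3 gene depended on the length used: over all annotated exons Cd3g ranked 6 in both strains.

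Alpha-beta against gamma-delta chains was compared within each library through the ratio of Trdc to Trac counts, which needs no scaling between libraries and involves neither pair of close copies. The ratio was 2.25, 2.94, 2.63 and 2.76 in the C3H libraries, against 1.51, 1.30, 1.66 and 1.27 in the B6 libraries. Its level depends on length, as the longest transcript has 3865 bases for Trdc and 935 for Trac. Per kilobase Trac stood above Trdc in both strains, so only the contrast between strains is read from the ratio. Every C3H library thus held relatively more delta to alpha transcript than any B6 library. The mean log2 ratio was 1.40 ± 0.164 in C3H and 0.51 ± 0.182 in B6 (SD, n = 4 each), a difference of 0.89, or 1.85-fold. The two-sided exact permutation test gave p = 0.0286, the smallest that 70 arrangements of 4 against 4 allow. With the 4 pancreas-rich libraries left out the difference was 0.74, on 2 libraries against 2, where p cannot fall below 0.333.

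The other ratios between constants are given without a test, and all but that of the sums were chosen after their values were seen. All gamma-delta constants over all alpha-beta constants came to 2.24 ± 0.117 in C3H and 1.71 ± 0.106 in B6, with no overlap (log2 difference 0.39). The level of this ratio, too, depends on gene length and on how many genes are summed. The size and direction depended on the gamma gene: Trgc4 over Trac was 1.67 ± 0.237 in C3H and 0.788 ± 0.095 in B6, whereas Trgc2 over Trac was 1.49 ± 0.195 in C3H and 1.75 ± 0.152 in B6, with overlapping groups. The gamma-delta genes did not move as a block.

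Within the close-copy pairs the balance also differed between strains. Trbc2 over Trbc1 was 1.27, 1.37, 1.48 and 1.16 in C3H, against 1.92, 2.10, 2.03 and 1.94 in B6. Trgc2 over Trgc1 was 0.522, 0.478, 0.569 and 0.600 in C3H, against 0.938, 0.914, 1.04 and 0.994 in B6. In both pairs every C3H ratio lay below every B6 ratio. The part that reads fitting both copies have in these balances was not tested. Trgc4 over Trgc1 was 0.607 ± 0.062 in C3H and 0.436 ± 0.035 in B6. Among CD3 chains Cd3d over Cd3e overlapped between strains (0.351 ± 0.059 in C3H and 0.337 ± 0.040 in B6), and Cd3g over Cd3e did not (1.68 ± 0.107 in C3H and 1.40 ± 0.079 in B6).

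**Figure D3:**
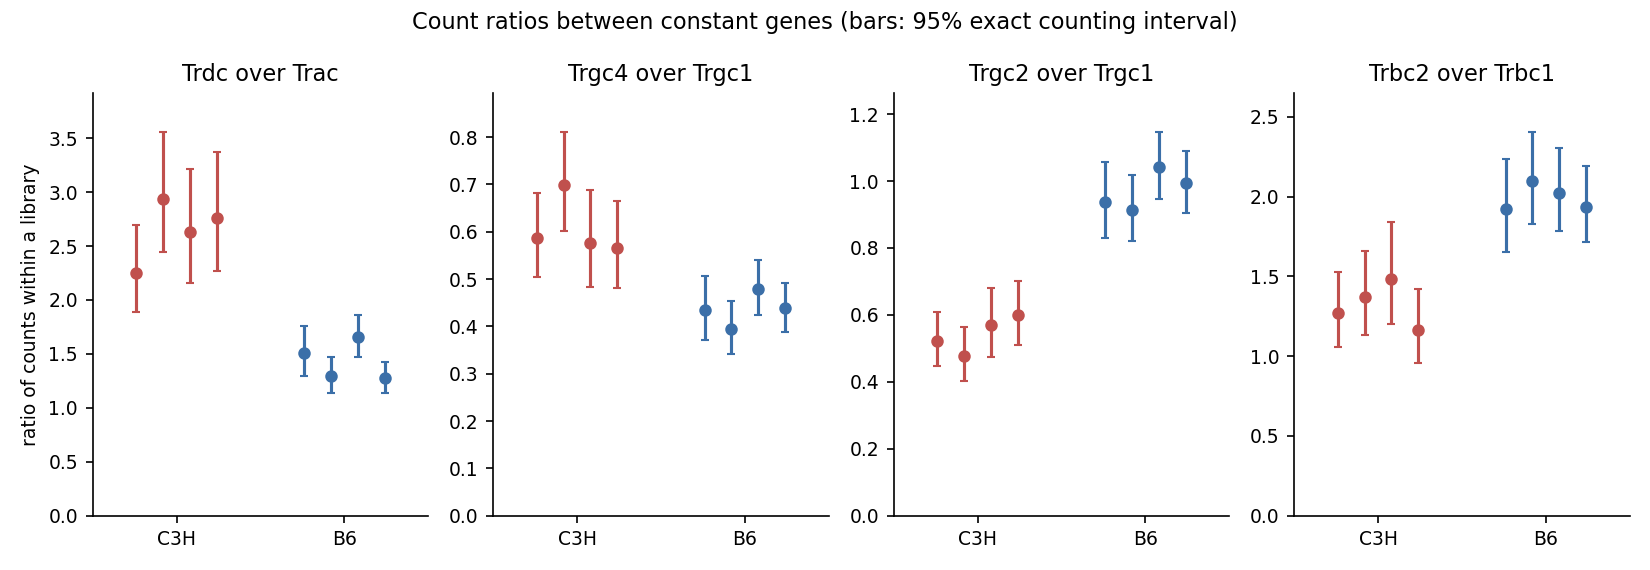
Ratio of counts between constant genes in each library, C3H at the left and B6 at the right of each panel, with 95% exact intervals that cover counting error only. Trdc over Trac and Trgc4 over Trgc1 are higher in all C3H libraries, and Trgc2 over Trgc1 and Trbc2 over Trbc1 are lower in all of them.

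The gamma locus is built of cassettes, each with its own variable segments and constant gene, so variable segments were set beside the gamma constants. A variable segment and its constant lie on the same transcripts, so their likeness gives no separate support. Sequence shared among variable segments was not measured. Trgv2, the variable segment of the Trgc2 cassette, had 1.14, 1.36, 1.23 and 2.12 CPM in C3H, against 3.64, 4.29, 4.84 and 3.49 CPM in B6. It was 2.80-fold lower in C3H (log2 fold change -1.48, SE 0.203, edgeR adjusted p = 0.00033), close to the difference in Trgc2 (-1.61). The ratio of Trgv2 to Trgc2 counts overlapped between strains, at 0.281 ± 0.054 in C3H and 0.258 ± 0.042 in B6.

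Trgv7, which joins Trgc1 and is typical of intestinal intraepithelial gamma-delta cells, had 2.24, 2.23, 3.15 and 4.54 CPM in C3H, against 3.75, 4.07, 4.53 and 3.53 CPM in B6. The groups overlapped through C3H replicate 5, and the log2 fold change of -0.40 (95% confidence interval -0.87 to 0.08, edgeR adjusted p = 0.236) did not pass. Without C3H replicate 5 it was -0.65 and passed (adjusted p = 0.0191). Trgv4, which also joins Trgc1, was lower, at 0.721 ± 0.217 CPM in C3H and 1.37 ± 0.0649 CPM in B6 (log2 fold change -0.91, SE 0.214, edgeR adjusted p = 0.0106). Its call was lost in 5 of 19 alternatives.

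Trgv1, the variable segment of the Trgc4 cassette, had near equal levels, 1.05 ± 0.0629 CPM in C3H and 1.078 ± 0.172 CPM in B6 (log2 fold change -0.03, 95% confidence interval -0.40 to 0.34, edgeR adjusted p = 0.926). Trgv3, Trgv5 and Trgv6 had at most 5 counts in any library and were not tested. The ratio of Trgv2 to Trgv7 counts was 0.495 ± 0.093 in C3H and 1.02 ± 0.048 in B6, with no overlap. Variable and constant segments thus gave the same order for these cassettes, with the difference largest for Trgv2 and Trgc2 and smallest for Trgv1 and Trgc4. Both are parts of the same transcripts.

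**Figure D4:**
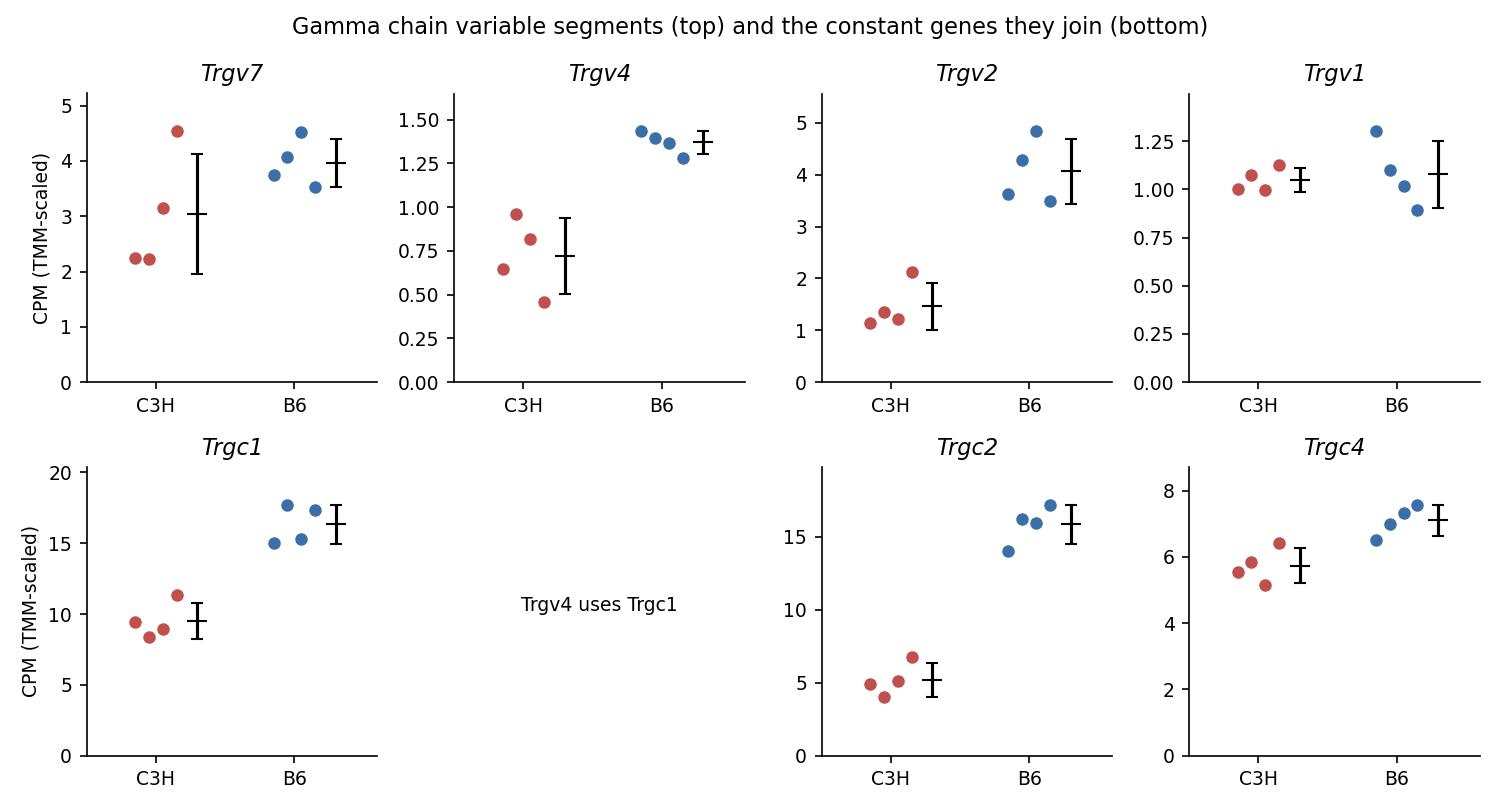
CPM of gamma variable segments (top) and of the constant gene of the same cassette (bottom), with 1 point per library, C3H at the left and B6 at the right; black marks and bars are the mean and SD. Trgv2 and Trgc2 show a wide gap between strains, Trgv7 and Trgv1 overlap, and Trgc4 shows a narrow gap.

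Of the 176 variable segments of all 4 loci in the table, 11 had enough counts to be tested, 6 were lower in C3H and 1 was higher. Among all tested genes 10.1% were called lower and 11.3% higher. Many are close copies of each other, so single segments are uncertain. The 128 alpha segments had 23 to 46 counts per C3H library in sum and 71 to 127 per B6 library, and none was tested. The 35 beta segments summed to 48 to 64 counts per C3H library and 195 to 248 per B6 library, and 4 of the 6 tested were lower. These 4 passed the filter on low counts through their B6 libraries. The direction of their calls was thus largely set by the filter and gives no separate support. Trbv16 had 1, 4, 1 and 0 counts in C3H, against 35, 23, 54 and 49 in B6 (log2 fold change -4.58, SE 0.452, edgeR adjusted p = 2.93e-05), a larger difference than in either beta constant (-0.77 and -1.38). C3H replicate 3 held 4 of the 6 C3H counts, and without it the log2 fold change was -5.55; without the 4 pancreas-rich libraries it was -5.28. Trbv19 had 24 counts in C3H and 66 in B6, and Trbv13-1 had 33 in C3H and 68 in B6 (edgeR adjusted p = 0.0169 and 0.0326). The call of Trbv19 was lost in 5 of 19 alternatives and that of Trbv13-1 in 12 of 19.

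Delta segments summed to 32 to 45 counts per C3H library and 25 to 72 per B6 library, which overlapped. Trdv2-2 was the segment called higher in C3H, with 27, 34, 32 and 40 counts in C3H, against 8, 14, 29 and 12 in B6. Its log2 fold change was 1.18 (SE 0.331, edgeR adjusted p = 0.0266), the CPM of the groups overlapped, and the call was lost in 8 of 19 alternatives. Trdv2-2 passed the filter on low counts through its C3H libraries, which favoured a call in this direction. The gamma segments summed to 244 to 309 counts per C3H library and 387 to 644 per B6 library.

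Among 31 genes of the receptor complex and its proximal signalling, 19 were lower in C3H and 0 were higher in edgeR. Of all tested genes 10.1% were lower and 11.3% higher. The median log2 fold change of the 31 genes was -0.53. At an unadjusted p under 0.05 in edgeR, 22 were lower and 1, Syk, was higher. The share of all tested genes at that unadjusted threshold is not given here. After adjustment DESeq2 and limma-voom also called 0 higher. Without the 4 pancreas-rich libraries 9 were lower. Calls over all genes fell there too, to 822 lower of 18560 tested, from 1817 of 18025 with all libraries. Syk, a kinase related to Zap70 that many other leukocytes use, was called higher when B6 replicate 3 was left out (log2 fold change 0.45, adjusted p = 0.0290); with all libraries it was not called (0.32, adjusted p = 0.124). Cd247, the zeta chain that completes the receptor complex, had 1.40 ± 0.233 CPM in C3H and 3.08 ± 0.481 CPM in B6 (log2 fold change -1.14, edgeR adjusted p = 0.000558), much like the CD3 chains. Zap70, the kinase that binds phosphorylated CD3 and zeta tails, differed by -0.76 on the log2 scale and Lck, the kinase that phosphorylates them, by -0.71 (edgeR adjusted p = 0.00100 and 0.00251). Cd247, Zap70 and Lck were named after their values were seen.

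Trat1, a transmembrane adaptor that binds the receptor complex, showed the largest difference of this list. It had 0.178 ± 0.0448 CPM in C3H and 2.22 ± 0.366 CPM in B6, 31 against 406 counts in all (log2 fold change -3.64, SE 0.230, edgeR adjusted p = 9.57e-07), 12.5-fold lower. Trat1 had 9, 6, 8 and 8 counts in the C3H libraries and passed the filter on low counts through its B6 libraries. Sit1, Ubash3a and Sh2d1a, also called lower, passed it through their B6 libraries too. The direction of these calls was thus largely set by the filter and gives no separate support. Lat, the scaffold on which the signalling complex assembles, was 3.22-fold lower, at 1.84 ± 0.338 CPM in C3H and 5.93 ± 1.20 CPM in B6 (edgeR adjusted p = 4.59e-05). Grap2, an adaptor that links Lat to Lcp2, was 2.35-fold lower (adjusted p = 2.72e-05) and Sh2d2a, a T cell adaptor that binds Lck, 2.34-fold lower (adjusted p = 9.14e-05). The 12 genes that were not called had log2 fold changes from -0.35 to 0.32.

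**Figure D5:**
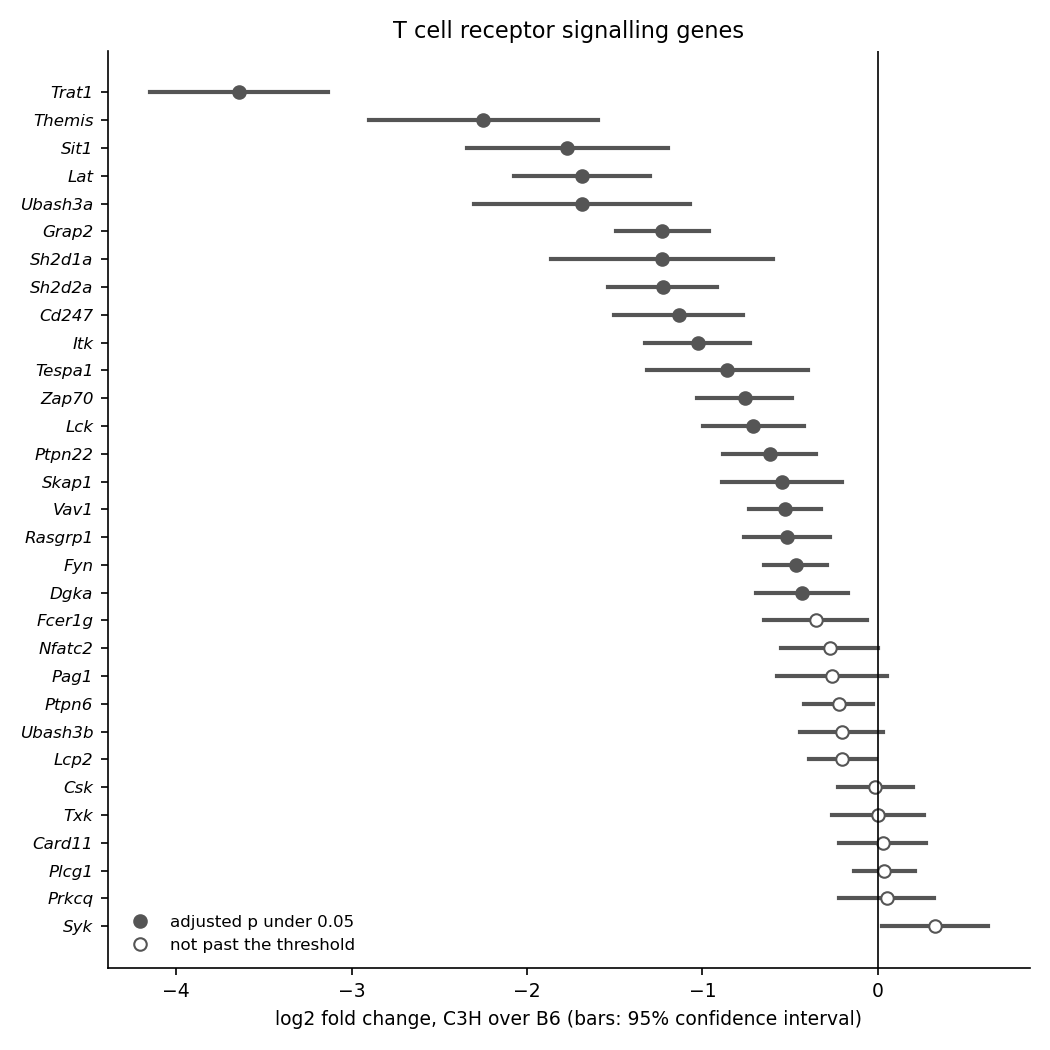
Log2 fold change of C3H over B6 (horizontal axis) for the 31 genes of the receptor complex and proximal signalling, with 95% confidence intervals; filled points passed the threshold. Trat1 stands apart at -3.64, and the 19 filled points all lie below 0. Trat1, Sit1, Ubash3a and Sh2d1a passed the filter on low counts through their B6 libraries, which favoured calls in this direction.

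Co-receptors and co-stimulators followed in part. Of 17 tested genes, 11 were lower, 1 was higher and 5 were not called, with a median log2 fold change of -0.70. Of all tested genes 10.1% were lower and 11.3% higher. Cd8b1, the beta chain of the CD8 heterodimer, was 4.02-fold lower, at 0.616 ± 0.112 CPM in C3H and 2.51 ± 0.416 CPM in B6 (edgeR adjusted p = 2.03e-05). Cd8a, which many intraepithelial lymphocytes carry as a homodimer, was 1.74-fold lower, at 19.5 ± 3.70 CPM in C3H and 33.8 ± 2.31 CPM in B6 (adjusted p = 0.000688), and was named after its value was seen. Cd5 and Cd6, related surface receptors found mostly on conventional alpha-beta T cells, were 4.66-fold and 3.62-fold lower (adjusted p = 0.000446 and 3.25e-05). The log2 fold change of Cd5 was -2.22, and -1.49 without the 4 pancreas-rich libraries. Cd244a, a receptor of natural killer cells and intraepithelial lymphocytes, was 1.99-fold lower (adjusted p = 7.61e-05). The gene that was higher was Cd4, the co-receptor of helper T cells that some intestinal macrophages also carry, at 14.1 ± 1.19 CPM in C3H and 10.5 ± 1.14 CPM in B6 (log2 fold change 0.43, adjusted p = 0.0128). Cd4 was named after its value was seen.

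Transcription factors of the T lineage had a median log2 fold change of -0.20 over 12 tested genes, and 10 were negative. At an unadjusted p under 0.05, 5 were lower, again without the share of all tested genes at that threshold. After adjustment Ikzf1 and Ikzf3, lymphoid zinc finger factors, were lower (log2 fold changes -0.50 and -0.45, edgeR adjusted p = 0.0092 and 0.0122). A further 9 were not called. For these factors and the gamma-delta genes below, the shares over all tested genes were 10.1% lower and 11.3% higher. Of 8 tested genes associated with gamma-delta cells, Maf was lower (-0.62, adjusted p = 0.000719) and Sox13 and Etv5 were higher (0.56 and 0.54, adjusted p = 0.00161 and 0.00738), all of which other cells of the gut express too. The calls of Ikzf1, Ikzf3, Maf, Sox13 and Etv5 were lost without the 4 pancreas-rich libraries. In all, the call was lost in 2 of 20 alternatives for Ikzf1, in 4 for Ikzf3 and in 4 for Etv5; these included library totals for Ikzf1, and for Ikzf3 and Etv5 leaving out the 2 libraries richest in B cell markers. The genes Rag1, Rag2, Dntt and Ptcra, used while receptors are assembled in the thymus, had 2 to 11 counts per C3H library in sum and 7 to 15 per B6 library, and none was tested.

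Butyrophilin-like genes of the epithelium, some of which maintain Trgv7-bearing lymphocytes in the mouse intestine, differed in both directions. Btnl6, which pairs with Btnl1, was 9.18-fold lower, at 55.7 ± 12.5 CPM in C3H and 511 ± 79.1 CPM in B6 (edgeR adjusted p = 4.48e-07). Btnl1 was 1.65-fold lower, at 315 ± 68.8 CPM in C3H and 521 ± 33.1 CPM in B6 (adjusted p = 0.00436). Btnl5-ps was 1.82-fold lower (adjusted p = 0.00146) and Btnl4 2.22-fold higher (adjusted p = 0.00024). Btnl2 and Btnl9 were not called. These genes are related, and reads shared among them were not measured.

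Markers of other cells give the setting of these values. Total counts were 37205896 to 58251332 per library. The marker counts that follow stand beside 10.1% of all tested genes called lower and 11.3% called higher, and each list is short. Of 8 pan-leukocyte markers 5 were lower in C3H, summing to 183 to 207 CPM in C3H and 243 to 315 CPM in B6. Ptprc, the CD45 gene carried by all leukocytes, had 49.9 ± 2.40 CPM in C3H and 67.4 ± 5.93 CPM in B6 (log2 fold change -0.43, edgeR adjusted p = 0.00384). The sums of 11 enterocyte markers overlapped (51490 to 83820 CPM in C3H and 56000 to 73040 CPM in B6). Of 9 markers of natural killer and innate lymphoid cells 3 were higher and 2 lower, with sums of 50.8 to 53.2 CPM in C3H and 44.8 to 50.8 CPM in B6, and of 7 myeloid markers 2 were higher (255 to 291 CPM in C3H and 221 to 247 CPM in B6). Of 6 plasma cell markers, Tnfrsf17 (log2 fold change -0.68, adjusted p = 0.00286) and Jchain (-0.48, adjusted p = 0.0233) were lower in C3H with no overlap. The other 4 were not called: Sdc1 (0.22) and Mzb1 (0.28) lay above 0, and Xbp1 (-0.16) and Derl3 (-0.30) below it. The list summed to 987 to 1251 CPM in C3H and 1373 to 1628 CPM in B6. Most of that sum was Jchain, at 858 ± 129 CPM in C3H and 1194 ± 118 CPM in B6. Of 2 tested ileal markers, Slc51a was lower (-0.49, adjusted p = 0.0259) and Slc10a2 was not called (-0.18, adjusted p = 0.598). Fabp6, an ileal marker too low to be tested, went the other way, with 20 counts in C3H and 2 in B6. Every C3H library lay above every B6 library for Fabp6. B cell markers overlapped between strains and were richest in B6 replicate 3. Pancreatic markers ran from 55.1 to 3052 CPM in C3H and from 31.2 to 275 CPM in B6. The part of these other cells in the member differences was not tested; 9 members were lower also without the 4 pancreas-rich libraries and without the 2 libraries richest in B cell markers.

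Across the 8 libraries, after taking out the strain means, the members moved together with the mean of the CD3 chains, with Pearson correlations from 0.732 for Trbc2 to 0.963 for Cd3e. The CD3 chains are part of that mean, and all values share the library scaling. Outside the members, the tested genes with the most similar pattern were Reep6 (r = 0.978), Nkg7 (0.974), Tlr12 (0.974), Ift20 (0.973) and Snx3 (0.971), over 8 libraries and as a description without a test. Nkg7, a granule protein of cytotoxic lymphocytes, was also lower in C3H (log2 fold change -0.62, edgeR adjusted p = 0.00281), and the other 4 genes were not called. Nkg7 is among the markers of natural killer and innate lymphoid cells above, of which Ncr1, Klrk1 and Kit were higher in C3H and Klrb1c was also lower. Ncr1 passed the filter on low counts through its C3H libraries and Klrb1c through its B6 libraries, which favoured calls in these directions.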

How the data were processed

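Messenger RNA of 8 jejunum libraries was sequenced after a stranded preparation from 200 ng of RNA, per the labels. Per the submitters' processing notes, the authors used STAR 2.7.9a and HTSeq 2.0.2 on the mouse build GRCm39. The deposited values are raw counts per Ensembl gene, not normalized. Not given in the sources used here are the strand setting, the treatment of reads that fit several genes and the annotation release. GRCm39 derives from C57BL/6; the mapping of C3H reads to it was not tested.

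Symbols came from GENCODE M21 (build GRCm38), where the 3 gamma constants stand under older symbols that RefSeq lists as synonyms. It named 51948 of 56941 rows, and 176 of 177 listed symbols matched. Gene lengths and constant sequences are from GENCODE M21, promoters from RefSeq.

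Counts were fitted in edgeR 4.0.16 (R 4.3.3) after filterByExpr by strain (minimum count 10) and TMM scaling, by the quasi-likelihood F test. P-values were adjusted by Benjamini-Hochberg over 18025 genes, with a threshold of 0.05. Fold changes are C3H over B6, and standard errors are the fold change over the root of F. The TMM factors were 0.915 to 1.13. No 2 libraries of a strain agreed within counting noise (chi-square over degrees of freedom 21.2 to 81.2). Count intervals cover counting error only. The test was run on simulated counts with planted differences. Those counts did not carry the uneven pancreatic and B cell content of these libraries.

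Members and gene lists were chosen with earlier results of these data known. Named besides the members were up to 4 called genes per list with the smallest adjusted p, per locus up to 3 called variable segments per direction with the most counts, all gamma segments, and the 5 genes most like the CD3 chains. Others, including Cd4, Cd8a, Cd247, Zap70, Lck, Syk and single marker genes, were named after their values were seen. A transcription factor that the rule names is not reported here. Replicate numbers 3, 4 and 5 occur in both strains, but equal numbers did not deviate together.

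Alternatives were scaling in edgeR by library totals, by upper quartiles or by DESeq2 size factors, no filter, a mean of at least 100 counts, a threshold of 0.01, DESeq2 1.42.0, limma-voom (limma 3.58.1), a replicate block, and each library left out. Leaving out the 4 pancreas-rich libraries (B6 2, B6 3, C3H 3 and C3H 5) or the 2 richest in B cell markers, and other gamma genes in place of Trdc, were chosen after seeing the data.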

Additional observations from a re-analysis of the deposited data

Results flagged for a closer look

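Among 102 groups of 4 libraries, 6 held a library far from the other 3; chance gives about 1 in 20. Trat1 was at 2.76 CPM in B6 replicate 2, against 2.01 to 2.06 CPM in the other B6 libraries, all above the C3H libraries. Sh2d2a was at 2.06 CPM in C3H replicate 1, against 2.97 to 3.14 CPM in the other C3H libraries. The ratio of Trgc4 to Trgc1 counts was 0.699 in C3H replicate 3, against 0.566 to 0.586 in the other C3H libraries. Adipose markers summed to 164.7 CPM in C3H replicate 3, against 0 to 10.1 CPM in the other C3H libraries. B cell markers summed to 44.3 CPM in B6 replicate 3, against 9.20 to 12.8 CPM in the other B6 libraries. Lymphoid follicle markers summed to 68.6 CPM in the same B6 library, against 30.9 to 34.5 CPM in the other B6 libraries. In the C3H libraries they summed to 54.45 to 124.2 CPM. Most of that was Mfge8 (57.8 ± 7.41 CPM) and, in the pancreas-rich C3H replicates 3 and 5, Gp2. Gp2 was at 55.8 and 23.0 CPM there, against 0.844 and 2.20 CPM in C3H replicates 1 and 4. Ccr7, Cxcr5, Cr2 and Fcer2a had mean levels under 1 CPM in both strains. Of the 7 tested, Mfge8 was higher in C3H (log2 fold change 0.80, edgeR adjusted p = 0.0072) and 6 were not called, beside 11.3% of all tested genes called higher. The part of these cells in the member differences was not tested.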

How the results depend on the processing

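In all 20 alternatives 9 or 10 members were lower in C3H and 0 were higher. None of the 9 calls was lost; the highest adjusted p was 0.0474, for Trdc. Trgc4 passed in DESeq2, in limma-voom, without C3H replicate 5 and without B6 replicate 2, and its adjusted p ran from 0.0306 to 0.200. The log2 difference in the ratio of Trdc to Trac counts (0.89) ran from 0.832 to 0.961 with each library left out, where 3 against 4 cannot give an exact p below 0.0571. With a replicate block over the 3 pairs of shared numbers it was 0.988 (exact p = 0.25, the smallest possible); the numbers did not pair the libraries (correlations of -0.0227, 0.226 and -0.0529). It was 0.744 without the 4 pancreas-rich libraries and 0.915 without the 2 richest in B cell markers (exact p = 0.1, the smallest possible). In place of Trdc over Trac, the sums of gamma-delta and alpha-beta constants gave 0.39, Trgc4 over Trac 1.085 and Trgc2 over Trac the opposite sign, -0.235. The signalling genes lower in C3H numbered 19, 16 to 21 with a library left out, and 9 without the pancreas-rich libraries; those higher numbered 0 to 1 with a library left out. The variable segments called numbered 7, with 5 to 9 when a library was left out, 3 at a threshold of 0.01, 18 with no filter, 1 at a mean of at least 100 counts, 3 with the replicate block on 6 libraries, 4 on those 6 without it, and 4 without the pancreas-rich libraries. Ikzf3 and Etv5 lost their calls on the 6 libraries with the replicate block (log2 fold changes -0.44 and 0.45). Over all genes 1817 were lower and 2040 higher, against 1402 and 2194 with library totals alone, and 822 and 853 without the pancreas-rich libraries; the cause was not tested. Depth limited the variable segments: 11 of 176 could be tested.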
